A study of Mus musculus with 29 samples.

Results

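The binding sites of Atoh1 in cells that were given Atoh1 alone (iAtoh1) were compared with those in cells that were given Gfi1 together with Atoh1 (iG+A). Each peak summit of the 15568 in the iAtoh1 list and the 20504 in the iG+A list was widened to a window of 300 bp, and windows that shared at least 1 bp were joined into 1 site. This gave 27505 sites, of the 78408 obtained when all 9 peak lists of the series were joined in the same way. A site with peaks of both lists was called shared (7956 sites, 28.9%), and the rest were iAtoh1-only (7351 sites, 26.7%) or iG+A-only (12198 sites, 44.3%). The question was which sites Atoh1 occupied in common and which were listed in only one line, and what position, sequence and neighbouring genes each class had.

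Both lines were derived from the A2loxCre mouse embryonic stem cell line and carried a doxycycline-inducible cassette, with the proteins separated by 2A peptides and followed by the fluorescent reporter Venus. In iAtoh1 the cassette held Atoh1 with a FLAG tag. In iG+A it held untagged Gfi1 and the same tagged Atoh1. Cells of both lines were grown as embryoid bodies and given doxycycline at 2 µg/ml for 48 h before collection on day 6, so that neither group was uninduced. Atoh1 was precipitated through its tag, in 2 ChIP and 2 input libraries per line, and replicates came from different clones according to the design text of the series. The authors merged replicates before calling peaks, so no list holds a value per replicate. Intervals given here (95%, exact Clopper-Pearson for a share and Newcombe for a difference of shares) therefore cover counting error over sites only, sites close together are not independent, sequencing reads are not independent molecules, and no p-value was computed. The cell types within the embryoid bodies could not be checked from peak lists.

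Atoh1 is a basic helix-loop-helix (bHLH) activator that binds a short palindrome-like element, the E-box, as a dimer with an E protein, and it is required for the formation of inner ear hair cells and of several groups of neurons. Gfi1 is a zinc-finger protein best known as a transcriptional repressor in blood cells, and hair cells that lack it are lost after they form. In hair cells both proteins are present in the same nucleus. The E-box letters searched in the 250 bp around each summit were the symmetrical CAGCTG and CATATG, and CAGATG with its reverse complement CATCTG, on both strands. Together they are called the looser E-box pattern below, beside the longer AtEAM pattern of Atoh1 sites, which contains an E-box of this kind.

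The sequences of the strongest sites show how differently the classes could be built. They are from the plus strand of the mouse genome, build NCBIM37 (mm9), 140 bp around the summit, with the looser E-box letters in capitals. Ranked by fold enrichment in iG+A, the top 2 shared sites lay in introns of 6720456H20Rik and Dnahc2, and both were tandem repeats whose unit carried the E-box CAGCTG.
6720456H20Rik intron, shared, chr14:49095425-49095564: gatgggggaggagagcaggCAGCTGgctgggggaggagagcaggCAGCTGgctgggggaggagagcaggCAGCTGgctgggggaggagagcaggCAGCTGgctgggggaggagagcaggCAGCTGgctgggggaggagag
Dnahc2 intron, shared, chr11:69273476-69273615: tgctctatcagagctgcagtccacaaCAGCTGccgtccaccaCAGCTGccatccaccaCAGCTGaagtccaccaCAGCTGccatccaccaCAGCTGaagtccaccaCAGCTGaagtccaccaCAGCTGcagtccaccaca
The 2 highest iAtoh1-only sites lay outside genes and also held several E-boxes.
14056 bp before A930002I21Rik, iAtoh1-only, chr3:106879754-106879893: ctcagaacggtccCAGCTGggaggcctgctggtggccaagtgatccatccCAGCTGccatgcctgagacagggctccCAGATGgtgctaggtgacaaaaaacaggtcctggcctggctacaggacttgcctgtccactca
828151 bp past the start of CT009748.1, iAtoh1-only, chr9:11898369-11898508: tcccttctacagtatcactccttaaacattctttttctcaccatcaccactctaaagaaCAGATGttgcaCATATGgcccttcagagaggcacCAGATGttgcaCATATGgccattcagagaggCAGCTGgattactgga
Of the 2 highest iG+A-only sites, the first had no E-box in the stretch printed and the second had 2.
226363 bp before Pkdcc, iG+A-only, chr17:83388190-83388329: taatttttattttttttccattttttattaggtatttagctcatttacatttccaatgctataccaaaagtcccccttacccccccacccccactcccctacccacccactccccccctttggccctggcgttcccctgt
8858 bp past the start of Gpr142, iG+A-only, chr11:114669026-114669165: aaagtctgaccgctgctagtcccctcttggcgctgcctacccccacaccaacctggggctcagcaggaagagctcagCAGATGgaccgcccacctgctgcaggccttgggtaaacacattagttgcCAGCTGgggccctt
The fourth-highest iAtoh1-only site, next to the vomeronasal receptor gene Vmn1r47, is printed because its surroundings shared an identical run of 221 bp with those of the first iG+A-only site when 500 bp around each were compared. The same repeated sequence was thus among the 4 strongest sites of each only-class.
5752 bp past the start of Vmn1r47, iAtoh1-only, chr6:89977564-89977703: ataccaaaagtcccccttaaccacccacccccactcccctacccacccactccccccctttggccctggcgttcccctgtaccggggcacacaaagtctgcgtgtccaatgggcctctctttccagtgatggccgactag
The last 2 are promoters that headed their class among protein-coding genes, Hes6 among shared sites and 2010107G12Rik among iG+A-only sites. These 2 and the Vmn1r47 site were chosen for printing after their values were seen.
Hes6 promoter, shared, chr1:93310757-93310896: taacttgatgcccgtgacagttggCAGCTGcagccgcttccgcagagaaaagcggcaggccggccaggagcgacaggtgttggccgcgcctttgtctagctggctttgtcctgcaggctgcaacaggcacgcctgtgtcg
2010107G12Rik promoter, iG+A-only, chr6:34929451-34929590: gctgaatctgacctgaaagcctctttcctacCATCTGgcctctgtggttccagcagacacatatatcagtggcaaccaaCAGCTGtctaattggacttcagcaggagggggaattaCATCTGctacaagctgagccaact

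Of the 15307 sites with an iAtoh1 peak, 52.0% were shared (interval 51.2% to 52.8%), against 39.5% of the 20154 with an iG+A peak (38.8% to 40.2%). Sites of 2 or more peaks of the same list numbered 558. The summits of the 2 lists lay a median of 27 bp apart within shared sites, and 71.3% were within 50 bp. Just inside the joining limit, 166 of the 7554 shared sites with a single peak of each list had summits 250 to 299 bp apart. Just outside it, 196 iAtoh1-only and 248 iG+A-only sites had a summit of the other list at 300 to 349 bp. The next summit of the other list lay within 1000 bp at 24.3% of iAtoh1-only and 15.4% of iG+A-only sites, with medians of 5453 bp and 24894.5 bp.

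The classes were set by whether a peak was listed, and so by its strength, which is given here as a description. Fold enrichment is the number of ChIP fragments at the summit over the local background. Its median was 3.54 in iAtoh1 and 3.87 in iG+A at shared sites, 2.93 at iAtoh1-only sites and 3.07 at iG+A-only sites. The highest values were 53.1 at shared, 9.65 at iAtoh1-only and 15.1 at iG+A-only sites, so the strongest peaks of either line were nearly always shared. The share of iAtoh1 sites that were shared was 24.0% among peaks with a −log10 p of up to 5 and 98.6% above 40. For iG+A sites it was 14.6% and 96.5%. Across the 7956 shared sites the log2 fold enrichments of the lines had a Pearson r of 0.69, over sites that come from the same 2 pooled lists. The fold enrichment was higher in iG+A at 64.9% of them, with a median log2 ratio of 0.13, a value that also moves with the depth of each pool, which is not known. The summit lists leave out 35.5% of the called iAtoh1 peaks and 31.5% of the called iG+A peaks, by a filter that the sources used here do not give, so a site listed in only one line can still have a called peak of the other.

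**Figure D1:**
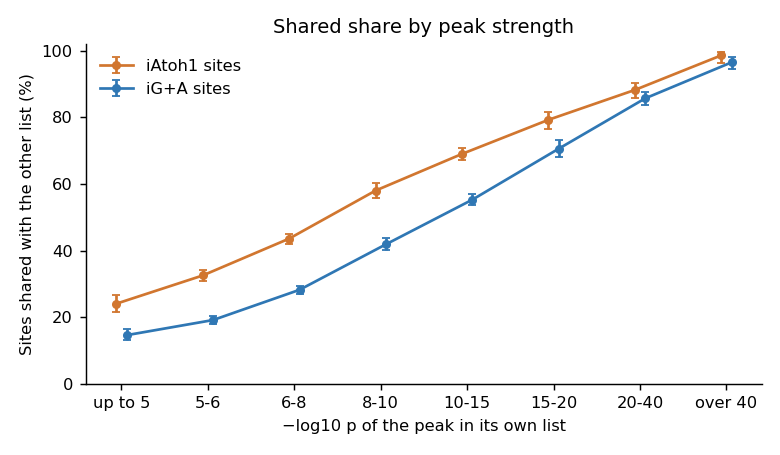
Share of the sites of each list that were shared with the other list (vertical axis, percent) in 8 bins of the peak caller's −log10 p in its own list (horizontal axis). Points are shares and bars exact 95% intervals. In both lists the share climbs with strength, from 24.0% to 98.6% for iAtoh1 and from 14.6% to 96.5% for iG+A.

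Sites of all 3 classes were crowded into a few stretches of the genome. A site was called dense if at least 10 sites, itself included, lay within 50 kb to either side. Dense sites were put into the same stretch unless a gap of more than 500 kb lay between them. This gave 121 dense stretches, the smallest with 1 dense site. Together they held 7808 dense sites and spanned 28.4 Mb, with the gaps between dense sites included. The largest 2, chr14:2999956-8498106 with 2304 sites and chr4:144980217-147191927 with 1048, held 3352. The stretch on chromosome 14 had 622 shared, 845 iAtoh1-only and 837 iG+A-only sites. Of iAtoh1-only sites 41.7% lay in dense stretches, against 25.9% of shared and 22.0% of iG+A-only sites, a difference between the only-classes of 19.8 percentage points (18.4 to 21.1). These stretches consisted largely of repeated sequence: of 32-bp words sampled there, 71.9% had another exact copy in the genome, against 15.8% at other sites. Outside dense stretches the share was 8.77% at shared, 29.6% at iAtoh1-only and 14.0% at iG+A-only sites. Peaks with a local background of more than 2 times the usual value were also more frequent there, 4.16% against 0.438% in iAtoh1 and 6.32% against 0.359% in iG+A.

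**Figure D2:**
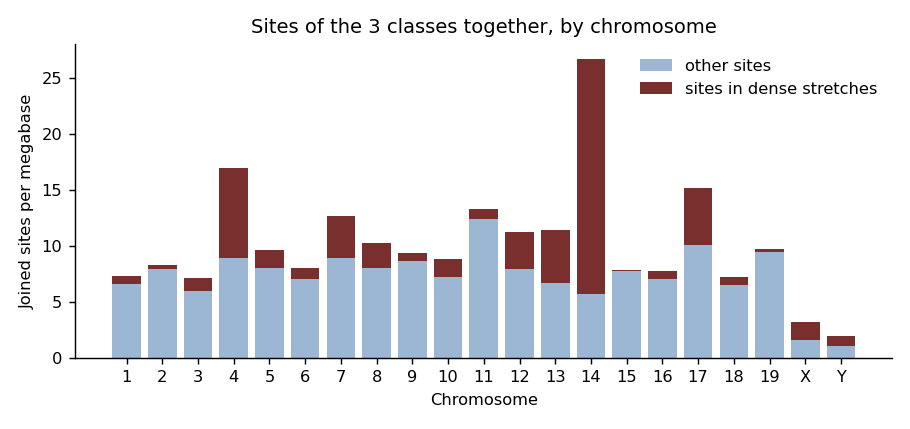
Joined sites of the 3 classes per megabase of each chromosome (bars, vertical axis), divided into sites in dense stretches (dark) and other sites (light). Chromosome 14 reaches 26.7 sites per megabase in all but 5.67 without the dense stretches.

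Because of this, the main results below on sequence, position and other peak lists are also given for single-copy sites, whose 5 sampled 32-bp words occur nowhere else in the genome. Of shared sites 67.2% were single-copy (5344 sites), of iAtoh1-only sites 41.8% (3072) and of iG+A-only sites 66.8% (8152). Among single-copy sites 63.5% of iAtoh1 sites were shared, while the share of iG+A sites stayed at 39.6%. Both groupings were chosen after the data were seen. The part of repeated sequence in placing reads was not tested.

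E-boxes were frequent in every class and most frequent at shared sites. The looser pattern was present at 75.0% of shared, 50.1% of iAtoh1-only and 59.7% of iG+A-only sites, against 31.6% to 32.2% of flanking windows 1000 bp away and 31.8% of 1023359 windows of the same length spread over the genome. At single-copy sites the shares were 90.6% (89.8% to 91.4%), 73.9% (72.3% to 75.4%) and 70.5% (69.5% to 71.5%). The order of the 2 only-classes thus turned: iG+A-only sites had an E-box 9.56 percentage points more often over all sites (8.13 to 11.0) but 3.43 points less often over single-copy sites (1.57 to 5.25 less). At single-copy sites the lower share of iG+A-only sites was seen among weaker peaks. With a −log10 p above 5 and up to 6, 63.9% of iG+A-only and 69.0% of iAtoh1-only sites had an E-box. Above 15 and up to 20 the shares were 88.9% of 235 and 88.6% of 44 sites. Shared sites exceeded iG+A-only sites by 20.2 points (18.9 to 21.4) at single-copy sites. Sites with 2 or more E-boxes made up 55.8%, 37.1% and 33.9% of single-copy shared, iAtoh1-only and iG+A-only sites.

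The letters CAGCTG were more frequent at shared sites than at either only-class. They were found at 67.8% of shared, 49.9% of iAtoh1-only and 45.9% of iG+A-only single-copy sites, against 12.2% to 13.1% of flanks and 8.96% of genome windows. The only-classes differed by −3.96 percentage points (−6.03 to −1.89), iG+A-only minus iAtoh1-only, and over all sites, where the shares were 35.6% and 26.6%, by 9.02 points (7.69 to 10.3). CAGATG was found at 50.8%, 42.1% and 39.7% of them, against 18.1% to 18.4% of flanks. CACCTG, an E-box outside the looser pattern that is bound by other bHLH and zinc-finger proteins, was found at 24.7%, 20.1% and 25.1%, closer to its flanks at 18.1% to 19.4%. Among all 6-letter words, CAGCTG and the overlapping AGCTGC had the largest excess over flanks in each of the 3 classes. The AtEAM pattern was present at 20.3%, 9.45% and 13.5% of all shared, iAtoh1-only and iG+A-only sites, against 2.08% to 2.32% of flanks and 2.14% of genome windows. At single-copy sites it was present at 26.6%, 17.4% and 17.3%, and the 2 only-classes differed by less than the counting error (−0.07 percentage points, −1.66 to 1.48).

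**Figure D3:**
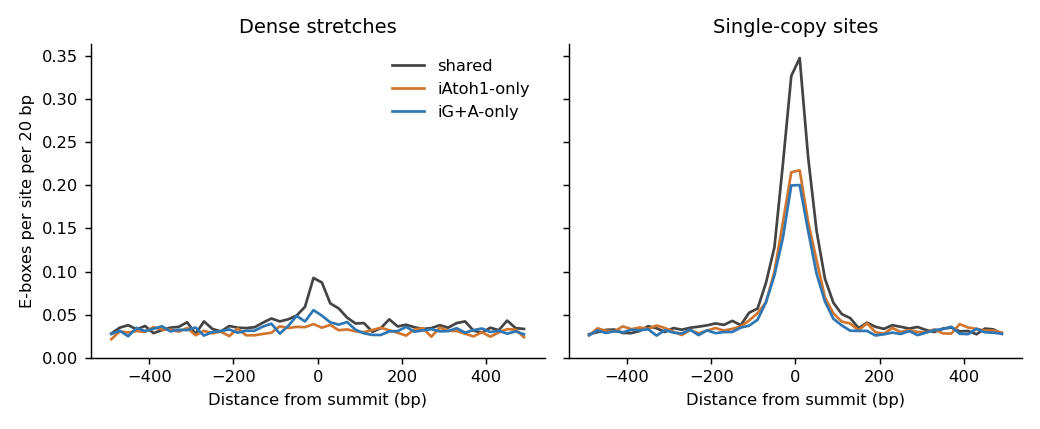
Looser E-boxes per site in steps of 20 bp (vertical axis) against distance from the summit (horizontal axis), for sites in dense stretches (left) and single-copy sites (right), one line per class. At single-copy sites all 3 lines peak at the summit, at 0.348 for shared, 0.217 for iAtoh1-only and 0.200 for iG+A-only sites, while in dense stretches they reach 0.0926, 0.0391 and 0.0552.

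In dense stretches the sequence differed. The looser E-box was present at 39.4% of shared, 33.7% of iAtoh1-only and 36.1% of iG+A-only sites there, and the AtEAM pattern at 4.80%, 2.64% and 2.99%. Flanking windows had the looser E-box at 31.2% to 31.5% and the AtEAM pattern at 1.62% to 2.09%. The AT-rich word ATAAAA was found at 23.5% of all iAtoh1-only against 13.7% of iG+A-only sites, and outside dense stretches at 15.6% against 10.2%. Conversely the GC-rich word CCCGCC was found at 22.0% of iG+A-only and 11.5% of iAtoh1-only sites, and outside dense stretches at 26.6% against 18.4%. The median GC content of the 250-bp windows was 53.6% at shared, 46.4% at iAtoh1-only and 52.0% at iG+A-only sites, and 56.4%, 54.8% and 54.8% at single-copy sites.

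Promoters, taken as windows within 1 kb of an annotated transcription start, held a larger part of the iG+A-only sites than of the others. They made up 28.5% of iG+A-only (27.7% to 29.3%), 24.2% of shared (23.2% to 25.1%) and 17.1% of iAtoh1-only sites (16.2% to 18.0%). The difference between the only-classes was 11.4 percentage points (10.2 to 12.5). At single-copy sites the shares were 37.0%, 31.0% and 30.8%, a difference of 6.13 points (4.18 to 8.06), and shared and iAtoh1-only sites no longer differed beyond counting error. Promoter sites were more frequent among weaker peaks of both only-classes. With a −log10 p above 5 and up to 6 they made up 41.6% of single-copy iG+A-only and 33.9% of iAtoh1-only sites. Above 15 and up to 20 they made up 14.5% and 11.4%. Introns held 30.1%, 32.7% and 32.7% of single-copy iG+A-only, shared and iAtoh1-only sites and exons outside promoters 3.10%, 3.46% and 3.87%. The median distance to a start was 4518 bp, 6252 bp and 6878.5 bp in the same order.

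The difference in E-boxes depended on the place. At single-copy promoter sites the looser E-box was present at 43.9% of 3013 iG+A-only sites, 58.4% of 947 iAtoh1-only sites and 80.6% of 1657 shared sites, and the only-classes differed by −14.5 percentage points (−18.1 to −10.9). In introns the order was the reverse, 88.1% against 84.0%, a difference of 4.11 points (1.58 to 6.79). Between genes it was 84.3% against 77.7%, a difference of 6.59 points (3.70 to 9.62). Over all sites the differences were −9.93 points at promoters (−13.1 to −6.70), 16.2 in introns (13.8 to 18.7) and 16.8 between genes (14.6 to 18.9). Promoters were thus the place where iG+A-only sites had the E-box less often than iAtoh1-only sites. The median number of CpG in the single-copy promoter windows was 20 in each class. Over all promoter sites it was 18 at shared, 15 at iAtoh1-only and 19 at iG+A-only sites.

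Gfi1 was not precipitated in either line. Its own pattern, AATCACAGC or AATCACTGC on either strand, was found at 0.641% of shared, 0.639% of iAtoh1-only and 0.639% of iG+A-only sites, against 0.434% to 0.497% of flanks and 0.516% of genome windows. The only-classes differed by 8.03e-05 percentage points (−0.245 to 0.224), so that an excess of Gfi1 patterns at sites found only with Gfi1 was not detectable, with an upper bound of 0.224 points. At single-copy promoters 21 of 3013 iG+A-only sites (0.697%) and 2 of 947 iAtoh1-only sites (0.211%) held it, and the interval of that difference included 0 (−0.120 to 0.883).

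The only map of Gfi1 in the series came from 1 library of cells induced for Gfi1, Pou4f3 and Atoh1 together (iGPA), with 3012 listed peaks. A Gfi1 peak of that list fell at 592 shared sites (7.44%, 6.87% to 8.04%), 179 iAtoh1-only sites (2.44%, 2.09% to 2.81%) and 413 iG+A-only sites (3.39%, 3.07% to 3.72%). The difference between the only-classes was 0.951 percentage points (0.464 to 1.42) over all sites and 2.21 points (1.55 to 2.80) over single-copy sites, where 3.90% of iG+A-only and 1.69% of iAtoh1-only sites had a Gfi1 peak. Limiting both lists to a −log10 p of 10 or more gave 0.697 points (−0.616 to 1.93), an interval that includes 0. At single-copy sites the difference was also seen within places: of promoter sites 6.31% of iG+A-only, 2.75% of iAtoh1-only and 6.76% of shared sites had one, and the only-classes differed by 3.56 points (2.07 to 4.83). In introns they had one at 2.61% and 1.39% of sites, a difference of 1.22 points (0.130 to 2.12). Over all sites it was seen at promoters only, at 2.89 points (1.55 to 4.06), while the intervals in introns (−0.355 points, −1.22 to 0.451), in exons (−1.10, −4.11 to 1.24) and between genes (0.400, −0.246 to 1.02) included 0.

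Gfi1 peaks of iGPA were more frequent at the strongest single-copy sites of the shared and iG+A-only classes. Ranked by fold enrichment within a class, of the first 100 single-copy sites 45 of the shared (35.0% to 55.3%) and 18 of the iG+A-only sites (11.0% to 26.9%) had one, against 7.73% and 3.90% of all single-copy sites of these classes. Of the single-copy iAtoh1-only sites 2 had one (0.243% to 7.04%), against 1.69% of all, so no such excess was detectable among them. The first 100 sites were not of like strength in the 3 classes. Only 20 single-copy iAtoh1-only sites had a −log10 p above 20 and up to 40, against 98 iG+A-only sites. The part of strength in the difference between these counts was not tested. With repeated sequence kept, 49 of the first 100 shared, 7 of the iAtoh1-only (2.86% to 13.9%) and 12 of the iG+A-only sites had a Gfi1 peak. The shares over all sites were 7.44%, 2.44% and 3.39%, so the iAtoh1-only class also had an excess there. Shared sites with such a peak had a median log2 ratio of fold enrichment, iG+A over iAtoh1, of 0.22 (n = 592), against 0.13 without (n = 7364), and at single-copy sites 0.30 (n = 413) against 0.18 (n = 4931). These ratios are levels within the lists that made the classes and were not tested. The strongest single-copy iG+A-only sites with a Gfi1 peak, chosen after their values were seen, were promoters of 2010107G12Rik (fold enrichment 9.48, chr6:34929371-34929670), of Myh9, which encodes a non-muscle myosin heavy chain (9.08, chr15:77672618-77672917), and of Tnks1bp1, which encodes a tankyrase-binding protein (7.74, chr2:84887829-84888128). Among shared sites, the site 46284 bp past the start of the spermatid nuclear protein gene Tnp1 had 9.04 in iAtoh1 and 29.0 in iG+A.

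The Atoh1 lists of the other lines were not used to make the classes. Atoh1 peaks of iGPA, which also carries Gfi1, were present at 76.4% of shared, 28.2% of iAtoh1-only and 38.7% of iG+A-only sites. Atoh1 peaks of iP+A, which carries Pou4f3 and Atoh1 without Gfi1, were present at 68.2%, 31.2% and 20.6%. The only-classes thus stood in opposite orders in the 2 lists: iG+A-only sites exceeded iAtoh1-only sites by 10.5 percentage points (9.13 to 11.8) in iGPA and were 10.6 points lower (9.35 to 11.9 lower) in iP+A. The same held at single-copy sites, with 46.5% against 37.9% in iGPA, a difference of 8.61 points (6.57 to 10.6), and 20.2% against 36.2% in iP+A, a difference of −15.9 points (−17.9 to −14.0). At single-copy promoters the iGPA shares were 46.9% and 47.9%, a difference of −1.04 points (−4.69 to 2.59), so that this order was seen at introns and between genes but not at promoters. In iP+A the promoter shares were 27.1% and 37.4%.

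Neither line carried a Pou4f3 cassette, and the Pou4f3 lists serve as a reference. At single-copy sites Pou4f3 peaks of iPou4f3 fell at 12.1% of shared, 11.0% of iAtoh1-only and 11.5% of iG+A-only sites, and those of iG+P at 10.6%, 10.6% and 9.72%. The only-classes did not differ beyond counting error in either list, with differences of 0.541 (−0.798 to 1.82) and −0.929 points (−2.23 to 0.305). Over all sites the iG+P shares were 23.3%, 24.8% and 15.8%, and in dense stretches alone 54.6%, 41.0% and 34.9%. A Pou4f pattern (ATAATTAAT with at most 1 mismatch) was rarer in each class than in its flanks, at 4.35%, 6.35% and 3.60% of all shared, iAtoh1-only and iG+A-only sites against 8.46% to 8.84%, and was found in 11.7% of genome windows.

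**Figure D4:**
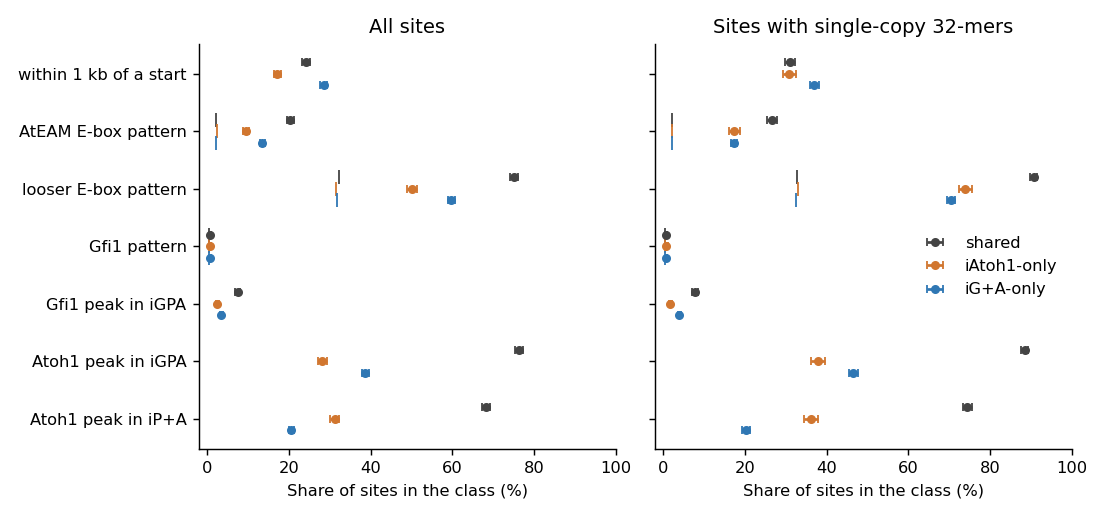
Share of the sites of each class (horizontal axis, percent) with each feature (rows), over all sites (left) and single-copy sites (right). Points are shares, horizontal bars exact 95% intervals and vertical ticks the share of flanking windows for sequence patterns. Shared sites lie far to the right for E-boxes and for Atoh1 peaks of other lines, and the points of the 2 only-classes change order for the looser E-box between the panels.

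The sites with the highest fold enrichment had unusual sequences. Among the 100 highest shared sites, 27 lay in tandem repeats with a unit of 13 to 60 bp and 51 held 4 or more looser E-boxes, against 2.66% and 7.39% of all shared sites. The first, in the intron of 6720456H20Rik (chr14:49095341-49095644), had a fold enrichment of 34.0 in iAtoh1 and 53.1 in iG+A and repeated a 25-bp unit with a match of 98.4%. The second, in the intron of the axonemal dynein gene Dnahc2 (chr11:69273396-69273715), had 43.9 and 51.8 and 14 looser E-boxes. The fourth, chr2:74793984-74794315, repeated a 39-bp unit, and the fifth, in an intron of the lysosomal acetyltransferase gene Hgsnat (chr8:27080033-27080376), a 53-bp unit, both with a match of 100%. All 5 also had Atoh1 peaks in iGPA and iP+A and a Gfi1 peak in iGPA.

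At promoters of protein-coding genes the shared sites were led by Hes6, a bHLH protein that counters Hes1 and favours neurogenesis (15.3 in iAtoh1 and 25.4 in iG+A), and by the secreted protein gene Tsku (24.7 in both). Rimbp3, Tmbim1 and Gm4559 followed, with 18.8 to 21.2 in iG+A. The iAtoh1-only promoters were led by the complement inhibitor gene Serping1 (6.35), then Gm3252, the centriole protein gene Cenpj, Rrs1 and Plcb4, down to 5.09. The iG+A-only promoters were led by 2010107G12Rik and Myh9, then Serping1 (8.53), Tnks1bp1 and the histone deacetylase gene Hdac11 (7.74). Serping1 stood in both only-classes because its 2 sites, chr2:84614750-84615049 and chr2:84615055-84615354, lay side by side and just missed being joined. The summits in short tandem repeats, with units up to 12 bp, numbered 88 shared, 54 iAtoh1-only and 96 iG+A-only sites. Their strongest were near 2610035D17Rik and Ctss (17.4 and 17.2 in iG+A) among shared, U4 and D19Ertd737e (8.00 and 6.60) among iAtoh1-only and Csnk1e and SNORA17 (7.48 and 7.40) among iG+A-only sites.

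Sites were assigned to the gene with the nearest start. Of 22225 protein-coding genes, 17.6% were nearest to at least 1 shared site, 12.8% to an iAtoh1-only site and 25.9% to an iG+A-only site. Within 5 kb of the start these shares were 10.2%, 6.69% and 16.2%. They are the background against which the counts for gene groups are read, with no test of a group. Genes named beyond the 4 with the most sites in a group were chosen after their values were seen.

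Sites were also assigned to the genes of the induced factors. At Atoh1, 3 sites were shared and 1 was iG+A-only. The shared site over the coding exon (chr6:64679373-64679714) had 4.89 in iAtoh1 and 3.74 in iG+A, and the iG+A-only site next to it (chr6:64679872-64680171) 3.07 and a Gfi1 peak in iGPA. Reads over the coding exon of the endogenous gene and of the cassette cannot be told apart. Gfi1 had 1 site, iG+A-only, over a non-coding exon 2211 bp past a start (chr5:108150615-108150914, 3.07), also with a Gfi1 peak in iGPA, and the part of the Gfi1 cassette in it was not tested.

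The Notch pathway, through which nascent hair cells and neurons inhibit their neighbours, had the highest share of genes with a shared site among the 10 groups apart from the E proteins and Id inhibitors. Of its 20 genes, 15 had a shared site, 6 an iAtoh1-only and 13 an iG+A-only site. These were shares of 75%, 30% and 65%, beside backgrounds of 17.6%, 12.8% and 25.9%. Within 5 kb of the start the counts were 12, 6 and 8, beside backgrounds of 10.2%, 6.69% and 16.2%. Heyl, a target repressor of the pathway, had 5 shared sites and 1 iG+A-only site, with the strongest at 11.6 in iAtoh1 and 10.3 in iG+A. Hes6 had 3 shared sites, all stronger in iG+A. At the receptor gene Notch1, 3 shared sites included a pair in introns with 8.06 and 5.13 in iAtoh1 against 16.2 and 12.4 in iG+A, while the 3 iAtoh1-only sites, between −93 and 1401 bp of a start, had 2.81 to 4.52. The repressor gene Hes1 had 6 sites within 5 kb, 2 shared, 1 iAtoh1-only and 3 iG+A-only. None of the 3 iG+A-only sites held a looser E-box, and 2 of them had a Gfi1 peak in iGPA. The shared Hes1 site 4102 bp past the start had one too, as did the strongest shared sites of Hes6, Notch1 and Dll1. Of the ligands, Dll1 had 2 shared sites (6.96 in iAtoh1 and 8.54 in iG+A at the stronger) and an iG+A-only promoter site, and Dll3 had 2 shared sites (8.06 and 8.81 at the stronger). Lfng, a glycosyltransferase that modifies Notch receptors, had 2 shared and 3 iG+A-only sites, the latter at 2.67 to 2.80.

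All 6 genes of the E proteins, the dimer partners of Atoh1, and of the Id proteins, which sequester E proteins, had an iG+A-only site, 5 had a shared and 3 an iAtoh1-only site. In the same order the shares were 100%, 83.3% and 50%, beside backgrounds of 25.9%, 17.6% and 12.8%. Within 5 kb of a start 4 had an iG+A-only, 4 a shared and 1 an iAtoh1-only site, beside backgrounds of 16.2%, 10.2% and 6.69%. Id1 had a shared site 12206 bp before its start with 13.8 in iAtoh1 and 21.5 in iG+A, 5 E-boxes and a Gfi1 peak in iGPA. Id2 had 8 iG+A-only sites against 1 shared and 1 iAtoh1-only site. Those iG+A-only sites had 2.54 to 4.94 in iG+A, and 6 of them lay 71995 to 166566 bp from the start. Id3 had 2 shared and 2 iG+A-only sites, and the E protein gene Tcf12 1 and 2. At Id3 the iG+A-only site over the coding exon, at 3.60, held no looser E-box and had a Gfi1 peak in iGPA.

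The neurogenic bHLH genes, a list that includes Atoh1 and the Notch-group gene Hes6 described above, carried mainly shared sites: of 17 genes, 6 had a shared, 1 an iAtoh1-only and 4 an iG+A-only site. As shares these were 35.3%, 5.88% and 23.5%, beside backgrounds of 17.6%, 12.8% and 25.9%, so the iG+A-only share was near its background. Within 5 kb of a start the counts were 5, 1 and 3, beside backgrounds of 10.2%, 6.69% and 16.2%. Atoh8 had 7 shared and 1 iG+A-only site, with the strongest, in an intron, at 13.4 in iAtoh1 and 19.4 in iG+A. That shared site and the shared promoter site of Nhlh1 had a Gfi1 peak in iGPA. Nhlh1 had 3 shared and 1 iG+A-only site and Nhlh2 2 and 1. Neurod4 had 1 shared site.

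**Figure D5:**
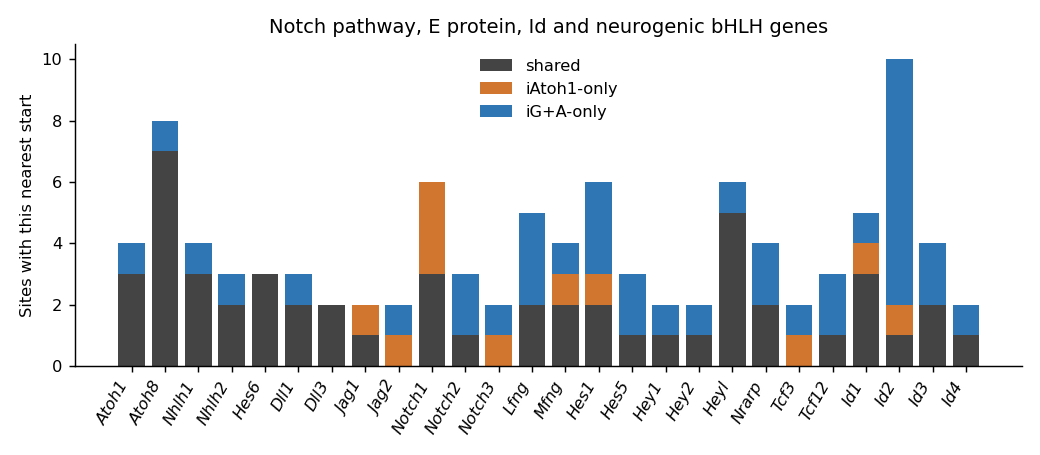
Number of sites of each class (stacked bars) whose nearest start belonged to a gene of the Notch, E protein and Id, or neurogenic bHLH groups, for genes with 2 or more sites. Id2 has 8 iG+A-only sites, Atoh8 7 and Heyl 5 shared sites, and Notch1 3 shared and 3 iAtoh1-only sites.

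Among 20 regulators of hair cell development, 10 had a shared, 7 an iAtoh1-only and 13 an iG+A-only site. These were shares of 50%, 35% and 65%, beside backgrounds of 17.6%, 12.8% and 25.9%. Within 5 kb of a start the counts were 6, 7 and 9, beside backgrounds of 10.2%, 6.69% and 16.2%. The list includes the induced factors Atoh1 and Gfi1, and Nhlh1, Nhlh2, Jag2, Dll1 and Sox2. Each of these genes is counted in another group too, so the groups are not independent. Rfx3, a ciliogenic factor, had 3 iG+A-only sites (up to 4.54) and no other. Prox1 had 1 site of each class and its shared site had 7.94 in iAtoh1 and 8.01 in iG+A. Of 20 genes for hair cell structure, such as bundle and transduction proteins, 4 had a shared, 4 an iAtoh1-only and 6 an iG+A-only site, shares of 20%, 20% and 30% beside backgrounds of 17.6%, 12.8% and 25.9%. Within 5 kb of a start 3 of them had an iG+A-only site, a share no higher than the background of 16.2%, at the promoters of Myo15, Espn and Cdh23 with 2.94 to 3.07. None had a shared or iAtoh1-only site within 5 kb, beside backgrounds of 10.2% and 6.69%. Pcdh15, which encodes a tip-link protein, had 1 shared, 1 iAtoh1-only and 2 iG+A-only sites.

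Of 19 genes of neuronal differentiation in the annotation, 4 had a shared, 7 an iAtoh1-only and 6 an iG+A-only site. As shares these were 21.1%, 36.8% and 31.6%, beside backgrounds of 17.6%, 12.8% and 25.9%, so the shared and iG+A-only shares were near their backgrounds. Within 5 kb of a start the counts were 2, 5 and 2, beside backgrounds of 10.2%, 6.69% and 16.2%. Rbfox3, the gene of the neuronal marker NeuN, had 3 shared and 3 iAtoh1-only sites, and its shared promoter site had 2.69 in iAtoh1 and 8.14 in iG+A. Cntn2 had 2 shared and 1 iG+A-only site, and Gap43 1 iAtoh1-only and 2 iG+A-only sites. The tau gene Mapt and the adhesion gene Ncam1 each had 2 iAtoh1-only sites within 5 kb and none of the other classes.

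Axon guidance genes were nearest to a shared site in 8, an iAtoh1-only site in 7 and an iG+A-only site in 14 of 20, beside backgrounds of 17.6%, 12.8% and 25.9%. Within 5 kb of a start the counts fell to 2, 2 and 5, beside backgrounds of 10.2%, 6.69% and 16.2%. Slit1, a repulsive ligand, had 2, 1 and 3 sites, and its receptor gene Robo1 2, 0 and 3. Unc5b, a netrin receptor gene, had 3 iAtoh1-only sites and 1 iG+A-only site, and Unc5c 1 and 3. Of 17 blood regulators linked to Gfi1, a list that includes Gfi1 itself, 4 had a shared, 4 an iAtoh1-only and 7 an iG+A-only site. These were shares of 23.5%, 23.5% and 41.2%, beside the same backgrounds of 17.6%, 12.8% and 25.9%. Within 5 kb of a start the counts were 3, 3 and 5, beside 10.2%, 6.69% and 16.2%. Runx1 had 3 shared and 3 iG+A-only sites, Gata2 and Cebpe 1 of each class, and Lmo2 1 shared and 2 iG+A-only sites, with 7.48 in iG+A at the strongest, at Cebpe.

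Of 15 pluripotency genes, 2 had a shared, 5 an iAtoh1-only and 5 an iG+A-only site. These were shares of 13.3%, 33.3% and 33.3%, beside backgrounds of 17.6%, 12.8% and 25.9%. Within 5 kb of a start the counts were 1, 3 and 2, beside backgrounds of 10.2%, 6.69% and 16.2%. Esrrb had 2, 2 and 1 sites and Klf4 1 shared and 1 iAtoh1-only site, with 6.96 in iAtoh1 and 8.41 in iG+A at the shared one. Sall4 had 1 iAtoh1-only and 1 iG+A-only site, and Nanog 1 iG+A-only site 6533 bp from its start. As a reference group, 4 of 10 housekeeping genes had a shared, 3 an iAtoh1-only and 5 an iG+A-only site, all 5 of the latter within 5 kb. Ywhaz had 2 shared and 1 iG+A-only site, Actb 1 of each class and Gapdh 1 iAtoh1-only and 2 iG+A-only sites. Shares of 40%, 30% and 50% in this reference group also stood above the backgrounds, as did those of several developmental groups.

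The genes nearest to the most sites mainly reflected dense stretches. Prl2c3, a placental prolactin-family gene on chromosome 13, had 65 shared, 55 iAtoh1-only and 46 iG+A-only sites, and Prl2c2 26, 35 and 26. Gm3667, Tmem181b-ps and Gm9597 followed with 24, 23 and 21 shared sites. Gm10479 (42), Cyp3a41b (36) and Naip6 (30) had many iAtoh1-only sites, and 1 copy of the U6 RNA had 28 iG+A-only sites. Cyp3a41b, a cytochrome P450 gene, had 36 iAtoh1-only sites against 2 shared and 11 iG+A-only. Outside dense stretches the order was led for shared sites by Auts2 (8 shared, 6 iAtoh1-only and 6 iG+A-only), Atoh8, then 4932411N23Rik, Gadd45g and Gli2 with 6 shared sites each. For iAtoh1-only sites it was led by AC134254.1 and Gm6584 (8 each), BC048507, the zinc-finger gene Zfp423 (7, against 3 shared and 1 iG+A-only) and AC131111.1. For iG+A-only sites it was led by Id2 and Mtrr (8 each), then Camta1, Gm17591 and Pkdcc (7 each). Several of these sites were far from any start, and the farthest counted for BC048507 lay 342772 bp away.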

How the data were processed

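ChIP-seq peak lists of Atoh1 in iAtoh1 and iG+A cells were used, and groups were taken from sample titles. As the methods describe, the authors' reads were trimmed with Trimmomatic and aligned to mm9 with Bowtie2. Duplicates were removed with Picard, along with reads of low mapping quality or in blacklisted regions, and peaks were called with MACS2 on merged replicates against merged inputs. The deposited peak files hold a fold enrichment over local background, a ratio computed by the authors, and −log10 p values of the peak caller, whose −log10 q values were not used. The deposited summit lists hold a score whose definition is not given in the sources used here, and only their positions and peak names were used. Total reads are not known. The usual local background was recovered from fold and −log10 p at 99.9% of peaks (tolerance 0.001), at 7.19 fragments in iAtoh1 and 6.49 in iG+A.

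Windows of 300 bp were centred on summits and joined at 1 bp of overlap. Positions, starts and sequence came from NCBIM37 and its GENCODE annotation, and patterns were searched in 250 bp around the summit and in flanks 1000 bp to either side. Other lists were matched by the same windows. Repeated sequence was found from 5 words of 32 bp per site. Python 3.11.15, numpy 2.4.6, pandas 2.3.3, scipy 1.17.1 and pysam 0.24.0 were used, and the scripts were checked on simulated sites.

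Named sites were the 5 of highest fold enrichment in each class (in iG+A for shared sites) and the 5 highest within 1 kb of a protein-coding start, on chromosomes 1 to 17, 19 and X, with the top 2 in short tandem repeats given apart. Named genes were the 5 with the most sites of each class, up to 4 per gene group, and Atoh1 and Gfi1. Members and gene groups were chosen with earlier results of these data known. Map2, Spi1 and Tfcp2l1 had no match in the annotation and were left out of the groups. The alternatives were other window widths, full peak intervals, a minimum −log10 p of 10, lists of equal length, all called peaks, autosomes alone, no short tandem repeats, another summit or search window, other definitions of starts and patterns, and, added after the data were seen, leaving out dense stretches or repeated sequence.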

Additional observations from a re-analysis of the deposited data

Results flagged for a closer look

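Some sites assigned to only one line had a peak of the other line that the authors called but did not keep in the summit list. Of the 7351 iAtoh1-only sites, 1558 (21.2%) had such an iG+A peak. Of the 12198 iG+A-only sites, 1504 (12.3%) had such an iAtoh1 peak. These shares are a description with no test, since the summit lists were known to leave out called peaks of both lines. The reason for leaving them out is not given in the sources used here.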

How the results depend on the processing

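No paired analysis was possible because replicates were pooled before peak calling. Over the alternatives run and the 2 added after the data were seen, the shared share moved with how a site was defined. The number of shared sites was 2739 with a −log10 p of at least 10 in both lists and 14361 with all called peaks. The share of iAtoh1 and of iG+A sites that were shared was 44.7% and 33.9% with 100 bp windows, 60.7% and 44.5% with 1000 bp windows, 50.3% and 38.2% with full peak intervals, 58.1% and 43.1% with a −log10 p of at least 10, 46.7% and 46.6% with lists of equal length, 63.8% and 51.5% with all called peaks, and 57.9% and 38.2% without dense stretches. With single-copy sites the share of iAtoh1 sites was 63.5%. The difference in Gfi1 peaks between iG+A-only and iAtoh1-only sites was 0.697 percentage points (−0.616 to 1.93) at the higher −log10 p. That in the Gfi1 pattern was −7.70 with its core AATC alone, where shared minus iAtoh1-only was −8.95. That in the Pou4f pattern was −0.0811 without a mismatch, and that in the AtEAM pattern −0.0662 at single-copy sites. The differences in promoters (6.13 to 11.8 points), in iGPA Atoh1 peaks (8.61 to 17.7) and in iP+A Atoh1 peaks (−15.9 to −7.46) kept their direction, with intervals excluding 0, under each alternative run. The causes of these changes were not tested. Pooled lists without read totals limit all comparisons: neither spread between clones nor differences in depth could be measured.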
